A study of Mus musculus with 6 samples.

Results

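The genes described here are 9 that set, sense or reverse the phosphorylation of the translation factor eIF2, measured by RNA sequencing in mouse Lewis lung carcinoma (LLC) cells after targeting of calreticulin. They were taken by gene symbol from a table of 55291 symbols, and all 9 were found. They are the 4 eIF2 kinases (Eif2ak1, Eif2ak2, Eif2ak3 and Eif2ak4), the alpha subunit of eIF2 that they phosphorylate (Eif2s1), the regulatory subunits of its phosphatase (Ppp1r15a and Ppp1r15b) and a pair of subunits of the exchange factor eIF2B (Eif2b4 and Eif2b5). LLC is an established line from a mouse lung carcinoma. The cells of the Calr KO group (n = 3 libraries) had received plasmids for Cas9 and a guide RNA against Calr, and those of the control group (n = 3), labelled WT, Cas9 with a control guide. Both groups were then kept in culture for 10 days without further treatment, seeded, and collected after another 48 hours, and all libraries carry 1 batch label. The wells of a group came from 1 transduced population per the series' design text, so the p-values measure the spread between wells and not between independent knockouts. The labels do not say that a clone was isolated.

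eIF2 carries the initiator tRNA to the ribosome, and eIF2B reloads it with GTP after each round of initiation. When a kinase phosphorylates the alpha subunit on a single serine, eIF2 holds eIF2B in an inactive form, most translation slows, and mRNAs such as that of the transcription factor ATF4 are translated more; this is the integrated stress response. PERK, encoded by Eif2ak3, is the kinase that responds to misfolded protein in the endoplasmic reticulum (ER), where calreticulin works as a chaperone. The control of this switch acts mostly on the proteins, by phosphorylation and binding, and the values here are mRNA levels: neither kinase activity nor phosphorylated eIF2 alpha was measured.

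The site on which the 4 kinases converge is shown first, since every other gene of the group acts on it or reads it. It is the serine counted as 51 without the first methionine, or codon 52 from the start codon of Eif2s1. The 51 bases around it lie in exon 2 of 8, within the coding region, at chr12:78866656-78866706 on the plus strand of GRCm38 (GENCODE M21), and the serine codon is in capitals.

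Eif2s1 codon 52: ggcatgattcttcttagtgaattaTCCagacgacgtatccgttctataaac

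Promoter sequences are given for orientation, since elements of the ER stress response are known; no link between an element and a change was tested. RefSeq windows (GRCm38.p6) of 250 bases before the transcription start were found for 8 of the 9 genes, with 2 windows for Eif2ak4 and none matched for Ppp1r15b. GENCODE M21 starts some of these genes earlier than RefSeq does: of the 9 windows, 3 lay wholly inside the GENCODE gene (Eif2s1, Eif2b4 and 1 of Eif2ak4), 2 reached into it by 1 to 4 bases and 4 lay outside it. They were searched on both strands for 4 motifs. These were the ER stress element (ERSE, read as CCAAT, any 9 bases and CCACG), the ATF6 and XBP1 motif TGACGTGG, the cyclic AMP response element TGACGTCA, and the C/EBP-ATF motif TGATGNAA to which ATF4 can bind; the first may contain a CCAAT box that other factors also use. None of the 9 windows held the ERSE, which 37 of 32851 RefSeq windows (0.113%) held. The window of Ppp1r15a held TGACGTCA, which is its own reverse complement, at 12 to 5 bases before the start, as 1.55% of windows did. TGACGTGG and TGATGNAA were in 0.563% and 3.45% of all windows and in none of these 9. A match is a string of letters and not a measured binding site.

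The windows of Eif2ak3 (chr6:70844265-70844514, plus strand) and Ppp1r15a (chr7:45526269-45526518, minus strand) are shown beside that of Dnajc3 (chr14:118937682-118937931, plus strand), an inhibitor of PERK whose mRNA rose, with matches in capitals.

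Eif2ak3: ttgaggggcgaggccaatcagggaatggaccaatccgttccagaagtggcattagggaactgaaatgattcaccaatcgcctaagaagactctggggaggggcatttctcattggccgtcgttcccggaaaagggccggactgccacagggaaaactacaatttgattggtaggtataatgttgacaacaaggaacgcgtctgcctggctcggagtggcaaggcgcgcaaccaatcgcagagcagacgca
Ppp1r15a: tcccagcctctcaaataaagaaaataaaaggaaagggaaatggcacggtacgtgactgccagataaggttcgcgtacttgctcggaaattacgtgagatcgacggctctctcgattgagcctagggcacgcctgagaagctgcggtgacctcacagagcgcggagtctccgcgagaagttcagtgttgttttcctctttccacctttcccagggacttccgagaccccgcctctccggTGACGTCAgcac
Dnajc3: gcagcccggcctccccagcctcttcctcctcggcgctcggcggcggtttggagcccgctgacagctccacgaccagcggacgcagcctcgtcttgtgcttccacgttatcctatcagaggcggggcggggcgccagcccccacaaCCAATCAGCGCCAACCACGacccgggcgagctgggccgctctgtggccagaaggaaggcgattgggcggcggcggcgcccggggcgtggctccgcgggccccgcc

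The ERSE of Dnajc3 lay 105 to 87 bases before the start. Hspa5, which encodes BiP, the ER chaperone that holds PERK inactive, carried 1 at 65 to 47 bases before its start (chr2:34772025-34772043), and 120 of the 250 bases of its window lay inside the GENCODE gene. The letters of the element were the following.

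Hspa5 ERSE: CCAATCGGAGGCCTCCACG

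The table holds gene counts that the authors normalised with DESeq2, called normalised counts here. Columns summed to between 14040692 and 14099985, and the worth of 1 read in each column put the depth at an estimated 13571214 to 14918665 reads per library. Calr, the targeted gene, had 4467, 4216 and 4453 normalised counts in the Calr KO libraries and 10711, 10202 and 11047 in the controls, 2.43-fold lower (log2 change -1.28, SE 0.04, limma adjusted p = 7.9e-07), so transcript remained in the Calr KO libraries. In bulk RNA, fewer cells with a transcript and less transcript per cell cannot be told apart. Of the markers of the labelled cell type, Krt8 had a mean of 4621 and Krt18 of 294, while Epcam, Nkx2-1, Sftpc and Scgb1a1 were listed at 0 in every library. Of 4 mesenchymal markers, Vim stood at 36379 ± 1095 against 39343 ± 1323 in controls, without overlap (log2 change -0.11, limma adjusted p = 0.278), Fn1 and Zeb1 had log2 changes of -0.05 and -0.06, and Cdh2 had a mean of 0.161. Of 5 macrophage, 4 lymphocyte, 4 endothelial and 4 fibroblast markers, 1, 0, 2 and 3 reached a mean of 10 normalised counts, and Ptprc, Cd3e and Adgre1 had means of 1.48, 0 and 0. The macrophage marker Cd68 had 79.0 ± 21.3 in Calr KO against 68.0 ± 12.8 in controls. Of the endothelial markers, Cdh5 had 6.80, 5.91 and 37.4 in Calr KO against 3.59, 2.98 and 4.17, without overlap (limma adjusted p = 0.574). Kdr had 25.7 ± 8.34 against 32.0 ± 7.08, with overlap. Summed over its markers, the macrophage list held 65.1 to 113 in Calr KO and 75.5 to 97.1 in control libraries, the lymphocyte list 7.16 to 9.74 and 0 to 5.98, the endothelial list 47.2 to 61.4 and 37.4 to 48.9, and the fibroblast list 314 to 363 and 323 to 356. Of the fibroblast markers, Pdgfrb had a mean of 259, Col1a1 of 6.29, Col1a2 42.7 ± 7.84 against 53.0 ± 1.33, and Dcn 31.9 ± 3.49 against 15.5 ± 3.03 (limma adjusted p = 0.312). The part of these cell types in the results was not tested.

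None of the 9 genes passed the test between Calr KO and control cells. All 9 were tested among 13199 genes with a mean of at least 10, in 1 limma fit on log2(value + 1) with Benjamini-Hochberg adjustment over all of them and a threshold of 0.05. Of all tested genes 0.28% passed, 0.197% as higher and 0.0833% as lower. The smallest adjusted p among the 9 was 0.581, for Eif2ak1. At an unadjusted p under 0.05 the count was also 0 of 9, against 8.88% of all tested genes. The log2 changes ran from -0.0038 for Ppp1r15b to 0.14 for Eif2ak1 with a median of 0.05, and the median over all tested genes was 0.00036. Of the 9 changes 8 were above 0, as were 50.1% of all tested genes.

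The intervals rest on the spread between wells and not between independent knockouts. All 9 95% intervals included 0 and lay within 0.5 on either side of it. The lowest bound was -0.30 and the highest 0.35, both for Eif2b4, which correspond to 0.814 and 1.27 times the control level. The narrowest intervals were those of the abundant Eif2s1 and Ppp1r15b. The values of single wells show the same spread.

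**Figure D1:**
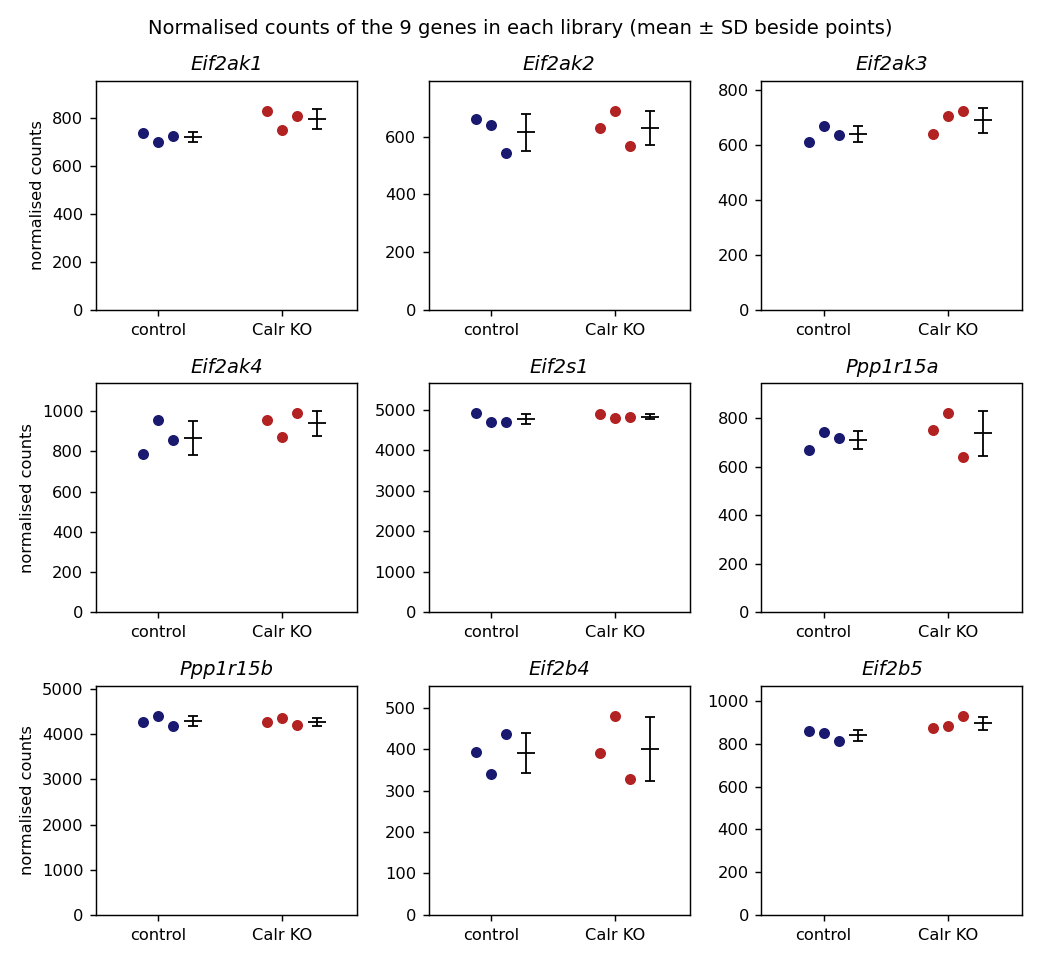
Normalised counts of the 9 genes in each of 3 control and 3 Calr KO libraries, 1 panel per gene with the axis starting at 0; points are libraries and the bar beside them is the mean ± SD. The groups overlapped in all panels except those of Eif2ak1 and Eif2b5.

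Among the kinases, Eif2ak3 comes first because it is the one anchored in the ER membrane. PERK senses misfolded protein in the ER lumen and phosphorylates eIF2 alpha on the other side of the membrane. Eif2ak3 (chromosome 6, positions 70844515 to 70905245, plus strand) had 640, 707 and 725 normalised counts in the Calr KO libraries and 612, 669 and 638 in the controls. Calr KO replicates 2 and 3 lay above all controls, and Calr KO replicate 1 lay below control replicate 2. The means were 691 ± 44.9 and 640 ± 28.4 (SD, n = 3), a ratio of 1.08 (log2 change 0.11, SE 0.07, 95% interval -0.06 to 0.27, limma adjusted p = 0.737). A rise of more than 1.21-fold lies outside this interval.

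Eif2ak1 encodes HRI, the kinase that heme holds inactive and that also responds to mitochondrial stress. It is the kinase gene with the largest change. Eif2ak1 (chromosome 5, positions 143817788 to 143904251, plus strand) had 831, 751 and 807 normalised counts in Calr KO and 739, 701 and 728 in control libraries. All 3 Calr KO libraries were above all 3 controls, by a margin of no more than the spread within the Calr KO group. The ratio of the means was 1.10 (796 ± 41.2 against 723 ± 19.8, log2 change 0.14, SE 0.06, 95% interval -0.0066 to 0.28, limma adjusted p = 0.581). The gene shares 487 exon bases with Aimp2 on the opposite strand and 172 with Ankrd61. The sources used here do not state whether counting used strand, so reads from the shared part cannot be told apart. Aimp2, a scaffold protein of the tRNA synthetase complex, had 682 ± 21 and 661 ± 28 normalised counts (log2 change 0.04, limma adjusted p = 0.886).

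Groups did not overlap in 2 of the 9 genes, Eif2ak1 and Eif2b5, both higher in Calr KO. Over all tested genes the groups did not overlap in 14.8%, in 7.57% with Calr KO higher and in 7.28% with Calr KO lower. The count of 2 is read beside these shares and carries no test.

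Eif2ak4 encodes GCN2, which is activated by uncharged tRNA and stalled ribosomes when amino acids run short. Eif2ak4 (chromosome 2, positions 118388618 to 118475234, plus strand) had 957, 869 and 988 normalised counts in Calr KO and 785, 953 and 858 in control libraries. Control replicate 2 lay within the Calr KO range and the groups overlapped. The means of 938 ± 61.6 and 865 ± 84.1 gave a ratio of 1.08 (log2 change 0.12, SE 0.08, 95% interval -0.07 to 0.31, limma adjusted p = 0.744).

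Eif2ak2 encodes PKR, the kinase that binds double-stranded RNA and is itself induced by interferon. Eif2ak2 (chromosome 17, positions 78852564 to 78882573, minus strand) had 632, 689 and 568 normalised counts in Calr KO and 662, 640 and 543 in control libraries. The third replicate was the lowest of each group, and the ranges nearly coincided. The change was 0.03 (SE 0.10, 95% interval -0.19 to 0.26, limma adjusted p = 0.953).

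Compared per length, the 4 kinase mRNAs stood at similar levels. Normalised counts were divided by the length of the union of annotated exons in kilobases. In control cells Eif2ak1 had 127 ± 3.49 normalised counts per kilobase, Eif2ak2 120 ± 12.4, Eif2ak4 116 ± 11.3 and Eif2ak3 106 ± 4.71. Neighbours in this order differed by less than the larger SD of the pair, though not always by less than the smaller. The PERK mRNA made up 22.7% ± 1.48 of the summed kinase level in Calr KO libraries, against 22.6% ± 0.75 in controls (n = 3, ± SD). The HRI mRNA made up 27.9% ± 1.33 and 27.2% ± 1.57, the PKR mRNA 24.4% ± 2.47 and 25.6% ± 2.22, and the GCN2 mRNA 24.9% ± 1.51 and 24.7% ± 1.90. The sum itself was 505, 501 and 506 normalised counts per kilobase in Calr KO and 467, 488 and 455 in control libraries. The sums of the groups did not overlap. The share of 14.8% without overlap is that of single tested genes, and no such share was computed for sums of genes. Of the 4 kinase genes, only Eif2ak1 had groups without overlap. No p is given for a sum over genes chosen together.

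In means over all 6 libraries, Eif2ak3 was the lowest of the 4 by the exon union and Eif2ak2 by the longest coding transcript. By the latter length these means ran from 144 for Eif2ak2 to 176 for Eif2ak1. Single libraries ran from 126 (Eif2ak2, control replicate 3) to 192 (Eif2ak1, Calr KO replicate 1). In control cells alone Eif2ak3 stayed the lowest by that length, at 141.8 ± 6.29 against 142.6 ± 14.7 for Eif2ak2. The rank of the kinases by level is therefore not fixed by these data. The upper part of the order was the same by both lengths.

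**Figure D2:**
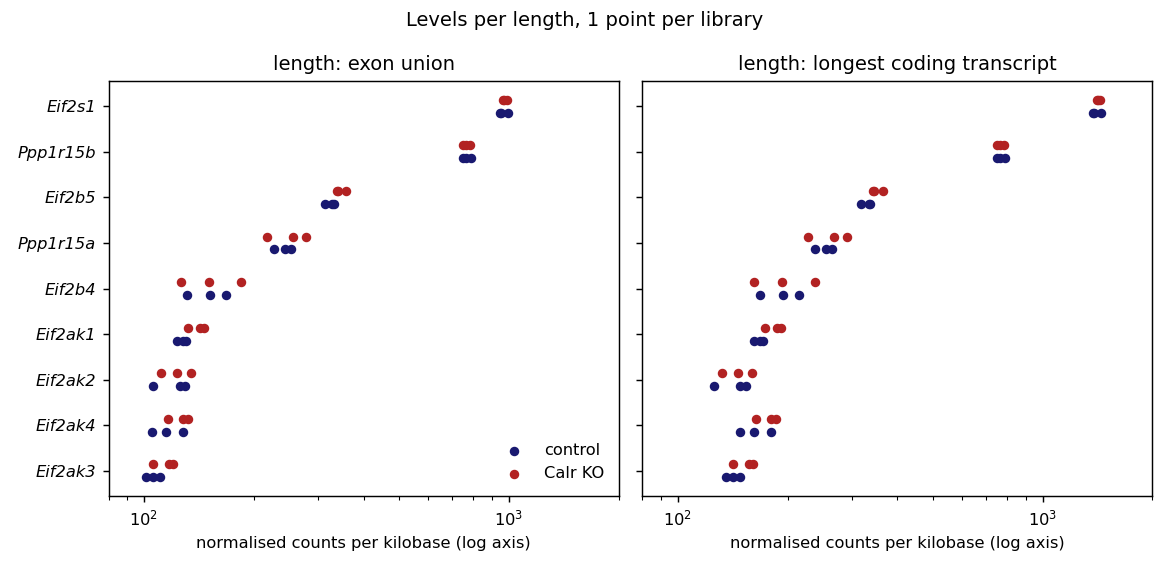
Levels of the 9 genes in normalised counts per kilobase on a log axis, with length taken as the exon union (left) or the longest coding transcript (right); each point is 1 library, control in dark blue and Calr KO in red. Eif2s1 and Ppp1r15b stand highest in both panels and the 4 kinases lie close together.

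Eif2s1, which encodes the eIF2 alpha subunit carrying the serine shown above, was the highest of the 9 genes per length. Eif2s1 (chromosome 12, positions 78861819 to 78887010, plus strand) had 4902, 4791 and 4821 normalised counts in Calr KO and 4915, 4691 and 4702 in control libraries. Control replicate 1 was the highest of the 6 libraries and the other controls were below all Calr KO libraries, so the groups overlapped. The change was 0.02 (SE 0.03, 95% interval -0.05 to 0.10, limma adjusted p = 0.900). A rise of more than 1.07-fold or a fall to less than 0.963 times the control level lies outside this interval. In the sums per exon length, Eif2s1 had between 1.92 and 2.13 times the level of the 4 kinases together.

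The phosphatase is built from protein phosphatase 1 and 1 of the 2 subunits that direct it to eIF2 alpha. Ppp1r15b encodes the constitutive subunit CReP, and Ppp1r15a the stress-induced subunit GADD34, a target of ATF4 and CHOP that closes the feedback loop. Ppp1r15a (chromosome 7, positions 45522916 to 45526268, minus strand) had 752, 819 and 639 normalised counts in Calr KO and 669, 743 and 716 in control libraries. Calr KO replicate 3 was the lowest and Calr KO replicate 2 the highest of the 6, so the Calr KO libraries enclosed the control range. The means were 737 ± 91.2 and 709.5 ± 37.7 (log2 change 0.05, SE 0.09, 95% interval -0.16 to 0.26, limma adjusted p = 0.923). A rise of GADD34 mRNA of more than 1.20-fold lies outside the interval.

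Ppp1r15b (chromosome 1, positions 133131143 to 133139783, plus strand) had 4261, 4371 and 4202 normalised counts in Calr KO and 4268, 4409 and 4192 in control libraries. The ranges coincided, with the second replicate highest in both groups. The change was -0.0038 (SE 0.04, 95% interval -0.08 to 0.08, limma adjusted p = 0.987), the smallest of the 9. A transcript of no assigned function, Gm26616, covers 640 exon bases of this gene on the opposite strand and had a mean of 198 normalised counts.

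In every library the CReP mRNA exceeded the GADD34 mRNA. Per kilobase of exon the ratio of Ppp1r15b to Ppp1r15a was 2.97, 2.80 and 3.45 in Calr KO and 3.35, 3.11 and 3.07 in control libraries. The control values lay inside the Calr KO range. By the longest coding transcript the ratio ran from 2.68 to 3.30.

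eIF2B is a decamer of 5 subunits, each present as a pair, in which Eif2b5 encodes the catalytic epsilon subunit and Eif2b4 the delta subunit of the regulatory core that phosphorylated eIF2 alpha binds. Eif2b5 (chromosome 16, positions 20498817 to 20509323, plus strand) had 877, 883 and 932 normalised counts in Calr KO and 860, 853 and 812 in control libraries. All Calr KO libraries were above all controls, with 17.3 normalised counts between the nearest libraries of the groups. The ratio of the means was 1.07 (897 ± 30.3 against 842 ± 25.9, log2 change 0.09, SE 0.06, 95% interval -0.04 to 0.22, limma adjusted p = 0.720).

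Eif2b4 had the fewest normalised counts and the highest coefficient of variation of the 9 genes, though its mean per kilobase was above those of the 4 kinases. Eif2b4 (chromosome 5, positions 31187558 to 31193430, minus strand) had 392, 480 and 328 normalised counts in Calr KO and 394, 341 and 436 in control libraries. The coefficient of variation was 19.1% in Calr KO and 12.2% in control cells, against 1.20% and 2.66% for Eif2s1. The change was 0.03 (SE 0.14, 95% interval -0.30 to 0.35, limma adjusted p = 0.975). The gene shares 204 exon bases with Snx17, a sorting nexin gene on the opposite strand that had 1075 ± 117 and 1063 ± 60.7 normalised counts (log2 change 0.01, limma adjusted p = 0.982). Per kilobase of exon, Eif2b5 stood at 1.84 to 2.84 times Eif2b4 over the 6 libraries.

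**Figure D3:**
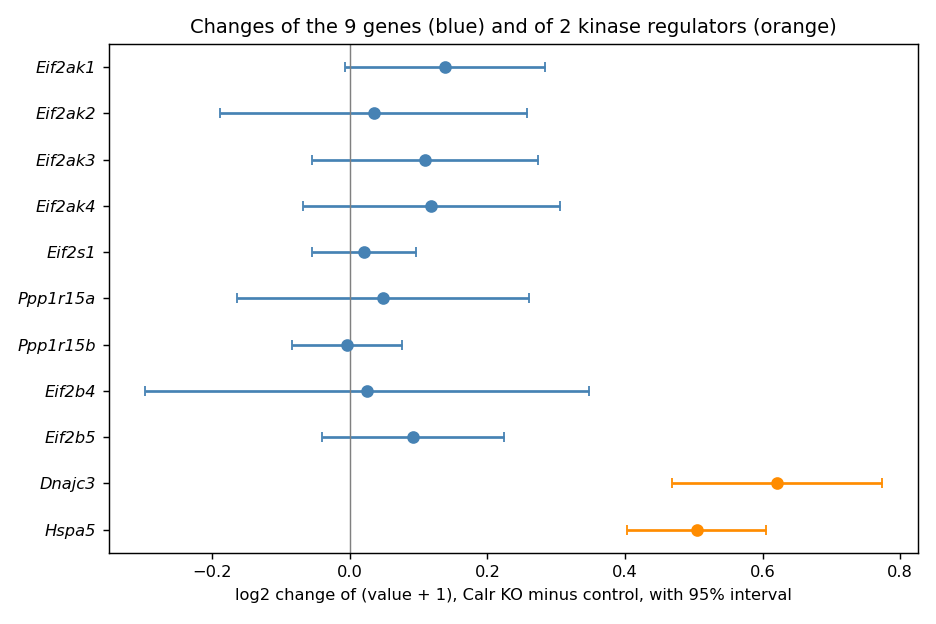
Log2 change of (value + 1), Calr KO minus control, with its 95% interval, for the 9 genes (blue) and for the PERK regulators Dnajc3 and Hspa5 (orange); the grey line marks 0. All blue intervals cross 0, and both orange intervals lie above 0.4.

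The other subunits of the eIF2 and eIF2B complexes gave no call among 6 tested, with 2 changes above 0 and 4 below and a median of -0.02. The most abundant were Eif2s3x, the X-linked gamma subunit (5457 ± 294 against 5812 ± 42.2, log2 change -0.09, limma adjusted p = 0.560), Eif2s2, the beta subunit (4980 ± 93.7 against 4998 ± 20.4, log2 change -0.0051), and Eif2b2, the beta subunit of eIF2B (837 ± 22.3 against 862 ± 39.1, log2 change -0.04). The Y-linked gamma subunit gene Eif2s3y stood apart. It had 166, 159 and 108 normalised counts in Calr KO and 54.8, 64.4 and 67.9 in control libraries. All Calr KO libraries were above all controls, with a ratio of 2.31 (log2 change 1.18, SE 0.19, 95% interval 0.74 to 1.61, limma adjusted p = 0.0568), which missed the threshold and passed it in some alternatives (adjusted p from 0.0304 without Calr KO replicate 3 to 0.310 with 1 variance prior for all genes). It was chosen after its value was seen. Eif2s3y made up 2.38% ± 0.61 of the gamma subunit level per exon length in Calr KO libraries and 0.973% ± 0.10 in controls; by the longest coding transcript the shares were 5.02% ± 1.25 and 2.09% ± 0.21. Reads of the X and Y copies can be shared.

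Summed per exon length, the 5 eIF2B subunit mRNAs came to 1218 ± 7.53 normalised counts per kilobase in Calr KO and 1186 ± 24.6 in control cells, with overlap between the groups. The sum holds genes of unequal levels. Eif2b2 had 457 ± 20.7 and Eif2b3 74.5 ± 1.56 normalised counts per kilobase in control cells.

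Among 11 initiation factors and an assembly factor that work with eIF2, none passed, and the median change was 0.04. The most abundant were Bzw1, a mimic of eIF5 (9279 ± 540 against 8609 ± 192, log2 change 0.11, limma adjusted p = 0.509), Eif5, the GTPase-activating protein of eIF2 (5516 ± 98.9 against 5354 ± 219, log2 change 0.04), and Eif5b, which joins the ribosomal subunits (3549 ± 311 against 3770 ± 165, log2 change -0.09). Unadjusted p was under 0.05 for 2 of the 11, against 8.88% of all tested genes.

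Of 7 tested genes for the catalytic subunits of protein phosphatase 1 and for cofactors of the eIF2 phosphatase, none passed, and the median was 0.02. Actb and Actg1, whose actin products take part in the PPP1R15 complexes, had log2 changes of 0.02 and 0.04. Ppp1ca, the most abundant catalytic subunit, had 5601 ± 150 against 5593 ± 224 normalised counts (log2 change 0.0024, limma adjusted p = 0.992). Ppp1cb, another catalytic subunit, had 3619 ± 79.0 against 3190 ± 124 (log2 change 0.18, 95% interval 0.09 to 0.27, limma adjusted p = 0.193). Unadjusted p was under 0.05 for 1 of the 7, Ppp1cb, against 8.88% of all tested genes. The groups did not overlap in 2 of the 7, Ppp1cb and Nck1, both with Calr KO higher, against 7.57% of all tested genes.

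Of 13 tested regulators of the kinases, Hspa5 and Dnajc3 rose, 0 fell and 11 did not pass, with a median of 0.07. Of all tested genes 0.197% passed as higher, and their median was 0.00036. Unadjusted p was under 0.05 for 2 of the 13, against 8.88% of all tested genes. The groups did not overlap in 3 of the 13, Hspa5, Dnajc3 and Oma1, all with Calr KO higher, against 7.57% of all tested genes. Hspa5 and Dnajc3 are both ER genes that act on PERK: BiP binds its lumenal domain, and Dnajc3 encodes p58IPK, described as an inhibitor of PERK and PKR and as a co-chaperone of BiP. Dnajc3 had 1538, 1322 and 1473 normalised counts in Calr KO and 957, 895 and 961 in control libraries. The groups were far apart, with a ratio of 1.54 (log2 change 0.62, SE 0.07, 95% interval 0.47 to 0.77, limma adjusted p = 0.0049). Hspa5 had 29688, 27658 and 31030 normalised counts in Calr KO and 21288, 19645 and 21362 in control libraries, a ratio of 1.42 (log2 change 0.50, SE 0.04, limma adjusted p = 0.0014). Their promoter windows are those in which the ERSE is shown above; these windows were chosen because the genes passed. Both calls were lost with 1 variance prior for all genes, with adjusted p of 0.188 for Dnajc3 and 0.254 for Hspa5. The intervals of both lie above the highest bound of any of the 9 genes, 0.35; the difference itself was not tested.

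The other 11 regulators gave no call. Gcn1, the ribosome-bound activator of GCN2, had a log2 change of 0.07 (2944 ± 69.9 against 2814 ± 135, limma adjusted p = 0.741). Hsp90ab1 and Hsp90aa1, whose chaperone HSP90 serves HRI and other kinases, had log2 changes of -0.02 and 0.03.

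**Figure D4:**
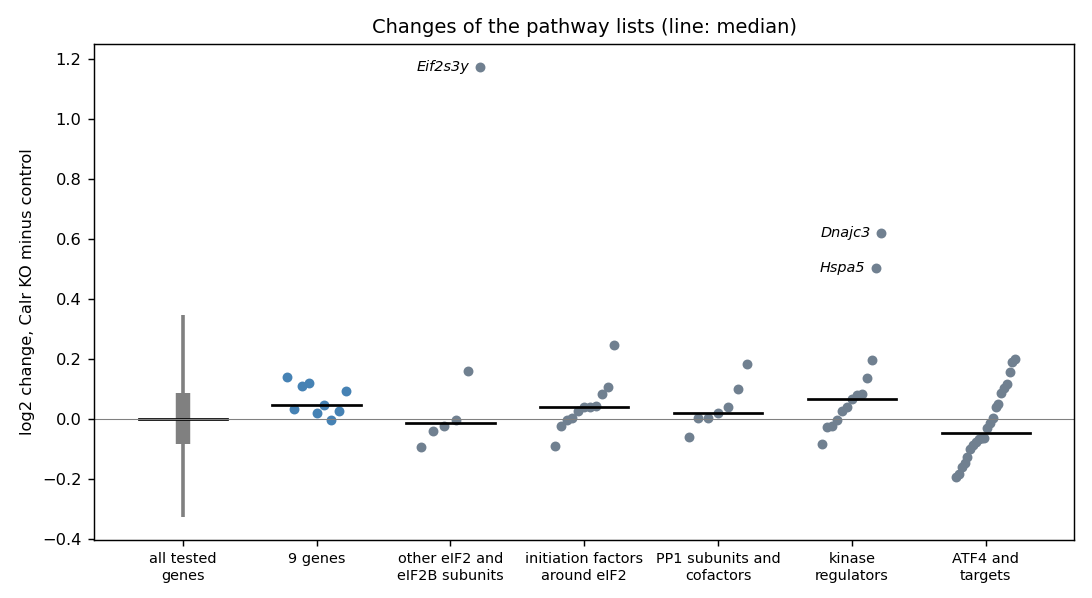
Log2 change, Calr KO minus control, of the 9 genes and of 5 lists of pathway genes, 1 point per gene with a line at the median; at the left, the thick bar spans the 25th to 75th and the thin bar the 5th to 95th percentile of all tested genes. Eif2s3y, Dnajc3 and Hspa5 lie above all other points of the lists.

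The output side of the pathway gave no call. Of 24 genes for ATF4 and its targets, 22 reached the minimum mean, none passed, and 9 changes were above 0 and 13 below, with a median of -0.05. The most abundant were Atf4 itself (log2 change -0.03, limma adjusted p = 0.865), Phgdh, the first enzyme of serine synthesis (7454 ± 178 against 7444 ± 185, log2 change 0.0019), and Psat1, the next enzyme (6506 ± 63.6 against 6905 ± 208, log2 change -0.09, limma adjusted p = 0.483). Of the 22, 7 had an unadjusted p below 0.05, against 8.88% of all tested genes. Of these, Atf3 and Slc7a11 were higher in Calr KO, and Slc3a2, Ddit4, Psat1, Gpt2 and Aldh1l2 were lower. The log2 changes of Ddit3, Trib3, Chac1 and Asns were 0.04, -0.10, -0.15 and -0.06. The groups did not overlap in 3 of the 22 with Calr KO higher and in 2 with Calr KO lower, against 7.57% and 7.28% of all tested genes.

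The leaders of the 9 mRNAs were examined because phosphorylated eIF2 can control the translation of an mRNA through upstream start codons. An upstream ATG alone does not show such control, which was not tested here for any of the 9. In the longest coding transcript of GENCODE M21, 7 of the 9 genes had at least 1 ATG before the start codon. The share was 53.3% of 11499 tested genes with an annotated start codon, whatever the length of the leader. Ppp1r15a had 7 in 764 bases, Ppp1r15b 3 in 604 bases, Eif2ak4 7 in 411 bases, Eif2b4 4 in 407 bases, Eif2ak3 3 in 211 bases, Eif2s1 2 in 363 bases and Eif2ak2 1 in 190 bases. Eif2ak1 and Eif2b5 had none in 103 and 97 bases. The median leader of the tested genes was 189 bases. The leaders of Eif2ak1 and Eif2b5 were shorter than this, and those of Eif2ak2 and Eif2ak3 were close to it. The counts describe the annotation and say nothing of which transcript the LLC cells used, and mRNA levels do not show translation.

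With a library left out, the directions of 4 of the 9 changes turned. Leaving out Calr KO replicate 2 put Ppp1r15a at -0.03, and leaving out Calr KO replicate 3 put it at 0.15. That of Eif2b4 was -0.11 and 0.16 without the same libraries, and -0.07 without control replicate 2. Eif2ak2 came to -0.03 when Calr KO replicate 2 was dropped and to -0.05 when control replicate 3 was. Ppp1r15b came to 0.0091 when Calr KO replicate 3 was dropped and to 0.02 when control replicate 2 was. Eif2ak1, Eif2ak3, Eif2ak4, Eif2s1 and Eif2b5 kept a change above 0 in each of the 6 fits, with the highest value 0.19, for Eif2ak4. None of the 9 passed in any of these fits.

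**Figure D5:**
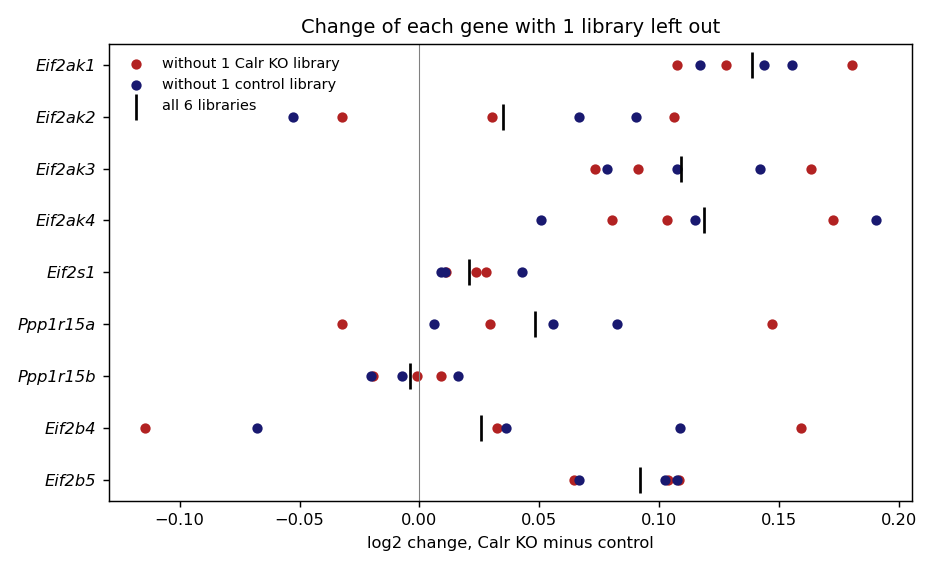
Log2 change, Calr KO minus control, of each of the 9 genes with 1 library left out, in red for a Calr KO and dark blue for a control library; the black tick is the value with all 6 libraries and the grey line marks 0. Points of Eif2ak2, Ppp1r15a, Ppp1r15b and Eif2b4 fall on both sides of 0.

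Among 10912 other genes with a mean of at least 50, those whose log2 values followed Eif2ak3 most closely over the 6 libraries were Wdfy3 (Pearson r = 0.993), Cenpc1 (r = 0.992) and Mrpl16 (r = 0.989). Wdfy3 encodes a scaffold protein of selective autophagy, Cenpc1 a centromere protein and Mrpl16 a mitochondrial ribosomal protein. The order is a description of these libraries, which carry 1 batch label, and has no test.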

How the data were processed

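The deposited table gives 1 signal per gene symbol and library, namely gene counts that the authors normalised with DESeq2, per the labels. STAR 2.6.1d and Salmon 0.14.1, along with DESeq2 1.34.0 and the build mm10, are listed without roles per the submitters' processing notes, and the sources used here give no annotation release. Values were not whole reads (3.42% to 4.31% of values of 100 to 1000 reads were whole within 0.02), so no count model was run. For genes with a mean of at least 10, limma 3.58.1 (R 4.3.3) was fitted to log2(value + 1), with moderated variances trended on expression, two-sided tests and Benjamini-Hochberg adjustment over 13199 genes. Fold changes on this scale understate the change of low genes, and ratios are of group means. Coordinates and lengths are from GENCODE M21 (GRCm38), whose symbols matched 96.4% of the table's. Promoter windows are from RefSeq.

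The 9 genes and all lists were chosen with earlier results of these data known. Named were Calr, the 9 genes, the list genes that passed, up to 3 others of the highest mean per list, and the 3 genes most like Eif2ak3; further names were chosen after their values were seen. The replicate numbers were not used to pair the samples in the main fit. The alternatives were 16 settings: pseudocounts, filters, scalings, variance priors, a replicate block and each library left out.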

Additional observations from a re-analysis of the deposited data

How the results depend on the processing

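None of the 9 genes passed the threshold in any of 16 alternative settings (lowest adjusted p 0.529, Eif2ak1 without Calr KO replicate 2), and Calr passed in all. The number of genes that passed among all tested, 37 as reported, was 2 with 1 variance prior for all genes, and 20 to 34 with 1 library left out. With that single prior 0 kinase regulators passed. Among the other eIF2 and eIF2B subunits 1 gene, Eif2s3y, passed with a minimum mean of 1, with no filter and with robust moderation, and 0 to 1 with 1 library left out; a lower filter tests more genes. Directions turned only with a library left out: Eif2ak2 ranged from -0.053 to 0.11, Ppp1r15a from -0.032 to 0.15, Ppp1r15b from -0.020 to 0.016 and Eif2b4 from -0.11 to 0.16 in those 6 fits; the cause was not tested. Same-numbered libraries of the groups had deviations that correlated at -0.06, -0.01 and 0.0014. These values do not show whether wells of the same number were handled together. With a replicate block 26 genes passed, 0 of them among the 9. Scaling moved the median of all genes by at most 0.01. Precision was lowest for Eif2b4, the gene of the fewest counts among the 9, whose interval ran from -0.30 to 0.35.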

Other observations

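Eif2s3y, the Y-linked gene of the eIF2 gamma subunit, was 1 of 5 tested Y-linked coding genes. These genes were chosen after the value of Eif2s3y was seen. Ddx3y, an RNA helicase gene, had 92.7, 103 and 99.3 normalised counts in Calr KO and 88.4, 70.1 and 72.6 in control libraries (log2 change 0.36, limma adjusted p = 0.548). Uty, whose product belongs by sequence to a histone demethylase family, had 31.1, 38.6 and 43.5 against 25.7, 29.7 and 30.5 (log2 change 0.38, limma adjusted p = 0.708). In both, all Calr KO libraries were above all controls, as in Eif2s3y and in 7.57% of all tested genes, and neither passed the test. Kdm5d, a histone demethylase gene, had 50.6, 43.3 and 81.5 against 61.4, 74.7 and 37.5, with overlapping groups (log2 change 0.02, limma adjusted p = 0.993). Gm47283, the most abundant of the 5, had 285 ± 3.73 against 299 ± 24.2 (SD, n = 3), with overlapping groups (log2 change -0.07, limma adjusted p = 0.883). The ratio of the means was 2.31 for Eif2s3y, 1.28 for Ddx3y, 1.32 for Uty, 1.01 for Kdm5d and 0.953 for Gm47283; differences between these ratios were not tested.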
